A study of Homo sapiens with 8 samples.

Results

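The 9 genes described here are tumour markers and lineage factors of ovarian carcinoma: the shed or secreted antigens MUC16, MUC1, WFDC2 and MSLN, the surface proteins FOLR1 and CD24, and the transcription factors PAX8, WT1 and ESR1. They were taken by name, and every probe set whose only gene symbol in the platform annotation is one of them was used. This gave 9 of the 11963 genes with such a probe set, and 33 probe sets of the 19064 that carry 1 gene symbol on an Affymetrix array. All 9 genes were measured, PAX8 by 8 probe sets, ESR1 by 9, CD24 by 6, MUC1 by 3, FOLR1 and WT1 by 2 each, and the other genes by 1 each. Each of 4 established lines of human ovarian cancer gave 1 array of cells given pI:pC and 1 array of untreated cells: OVCAR-3, CAOV-3, SKOV-3 and DOV-13. pI:pC, polyriboinosinic:polyribocytidylic acid, is a man-made double-stranded RNA used as a mimic of viral RNA, and the labels give neither dose nor exposure time for an array. Cells of all 4 lines were grown in the same serum-containing medium. A line is 1 tumour's descendants, so nothing here measures variation between patients. Values are log2 expression levels made with RMA by the authors, with array medians between 6.19 and 6.3, and precision is limited by how few arrays there are.

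MUC16 carries the CA125 epitope and MUC1 is a second large membrane mucin. Both shed their outer parts from the cell. WFDC2 encodes HE4, a small secreted protein of the whey acidic protein family used beside CA125 as a serum marker, and MSLN encodes mesothelin, a surface protein that binds MUC16. FOLR1 is the folate receptor alpha, held in the membrane by a lipid anchor, and CD24 is a small, heavily glycosylated protein with the same kind of anchor that is bound by the inhibitory receptor Siglec-10 on macrophages. PAX8 marks epithelium of Mullerian origin, WT1 is a zinc finger factor of the coelomic lining, the gonads and serous carcinoma, and ESR1 is the oestrogen receptor alpha.

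The lines differed in 24 of the 33 probe sets, and the treatment passed its test in 0. The moderated F test of limma over the 4 lines, with treatment as a term, called 24 of the 33 probe sets at an adjusted p under 0.05. This share, 72.7%, is near that of all probe sets tested, of which 67.5% were called. The size of the differences stood further from the rest of the array: the line means of 20 of the 33 probe sets spanned at least 2 on the log2 scale, against 11.4% of all probe sets, and the median span was 2.8 against 0.675. Of the 198 differences between 2 lines (6 for each probe set), 129 were called, or 65.2%, where 46.3% were called over all probe sets. Probe sets of 1 gene share their target and are not separate observations: PAX8 gave 48 of the 129 and CD24 gave 32. The members were chosen with earlier results of these data known, so setting them against the whole array is a description and not a test. The arrays of a line both enter these tests, so the spread behind them is what is left between a treated and an untreated array, and the labels do not name separate cultures.

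**Figure D1:**
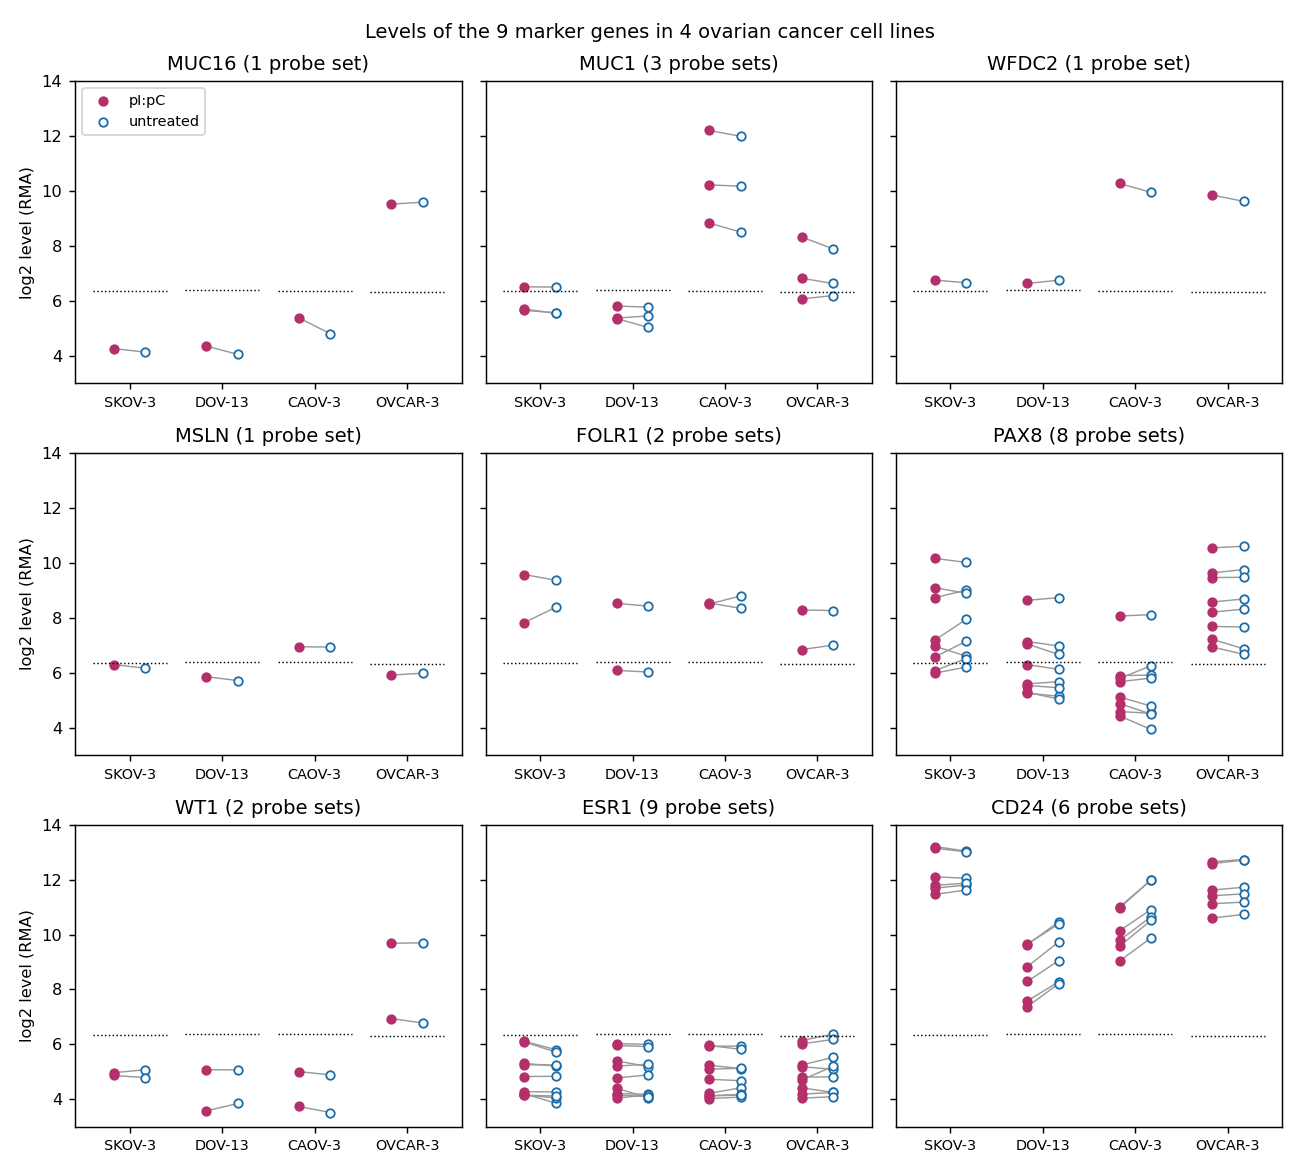
Log2 level of every probe set of the 9 genes in each line, with pI:pC as a filled point on the left and untreated as an open point on the right, joined for 1 probe set; dotted lines mark the median probe set of the array pair. MUC16 and WT1 stand high in OVCAR-3, MUC1 in CAOV-3, and all 6 CD24 probe sets are lower on the pI:pC array of DOV-13 and of CAOV-3; heights of different probe sets cannot be compared.

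Of the shed antigens, MUC16 was high in 1 line. Its log2 level in OVCAR-3 was 9.52 with pI:pC and 9.59 untreated. In CAOV-3 it was 5.38 with pI:pC and 4.80 untreated. In DOV-13 it was 4.35 with pI:pC and 4.05 untreated, and in SKOV-3 4.26 with pI:pC and 4.13 untreated. Both OVCAR-3 arrays lay above all others, and the 6 remaining arrays were under the median probe set of about 6.31 to 6.38. OVCAR-3 exceeded CAOV-3, the next line, by 4.46 ± 0.15 (SE from limma; adjusted p = 4e-07). No fold is given here or for WT1, since the lower levels are not shown to be above background. CAOV-3 exceeded DOV-13 by 0.89 ± 0.15 (limma, adjusted p = 0.00159), and DOV-13 and SKOV-3 differed by 0.01 ± 0.15 (limma, adjusted p = 0.977). For MUC16 and WT1 the promoter window listed first is shown, because these genes were high in OVCAR-3. MUC16 has 2 windows and WT1 has 4, and those not shown hold no match to the GC box. The windows shown run from 250 bases before to 50 after a RefSeq start of the gene on GRCh38.p14. They lie at chr19:9065702-9066001 for MUC16 and chr11:32435490-32435789 for WT1, both on the minus strand. Capitals mark matches to the GC box GGGCGG on either strand, each of these windows holding 1.
MUC16: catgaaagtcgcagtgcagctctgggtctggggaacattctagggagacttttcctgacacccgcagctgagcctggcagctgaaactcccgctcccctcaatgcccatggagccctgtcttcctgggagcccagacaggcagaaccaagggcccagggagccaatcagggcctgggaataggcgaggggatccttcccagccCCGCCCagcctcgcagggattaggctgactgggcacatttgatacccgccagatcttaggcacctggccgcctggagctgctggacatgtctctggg
WT1: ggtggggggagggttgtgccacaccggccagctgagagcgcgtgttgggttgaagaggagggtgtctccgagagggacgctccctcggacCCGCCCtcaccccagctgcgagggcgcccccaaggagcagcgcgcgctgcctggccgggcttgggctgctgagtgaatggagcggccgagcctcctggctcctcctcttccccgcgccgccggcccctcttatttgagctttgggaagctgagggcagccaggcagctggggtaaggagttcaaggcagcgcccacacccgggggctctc

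MUC1 had its highest level in CAOV-3 on all 3 probe sets. On the brightest, 213693_s_at, CAOV-3 had 12.20 with pI:pC and 11.99 untreated. OVCAR-3 had 8.32 with pI:pC and 7.89 untreated, SKOV-3 6.51 with pI:pC and 6.5 untreated, and DOV-13 5.81 with pI:pC and 5.77 untreated. The 4 lines did not overlap on this probe set, and each step of the order was called by limma, CAOV-3 over OVCAR-3 by 3.99 ± 0.12 (SE; adjusted p = 2.36e-07), OVCAR-3 over SKOV-3 by 1.60 and SKOV-3 over DOV-13 by 0.71. The order CAOV-3, OVCAR-3, SKOV-3, DOV-13 was the same on all 3 probe sets, with spans between 3.26 and 6.31. On 211695_x_at the lowest step, SKOV-3 over DOV-13, was 0.20 ± 0.12 and not called (limma, adjusted p = 0.229). The first listed of the 2 promoter windows of MUC1 is shown for the line difference with the greatest span, chr1:155192866-155193165 on the minus strand of GRCh38.p14. Capitals mark 4 GC box matches, which partly overlap each other, and 1 TATA box (TATAAA).
MUC1: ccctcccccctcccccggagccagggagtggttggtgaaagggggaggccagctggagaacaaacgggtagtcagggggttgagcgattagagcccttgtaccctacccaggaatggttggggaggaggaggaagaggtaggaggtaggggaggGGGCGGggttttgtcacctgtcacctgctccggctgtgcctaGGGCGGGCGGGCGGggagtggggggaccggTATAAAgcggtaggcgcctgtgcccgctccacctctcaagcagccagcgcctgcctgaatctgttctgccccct

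WFDC2 was high in a pair of lines. Its log2 level in CAOV-3 was 10.27 with pI:pC and 9.95 untreated, and in OVCAR-3 9.85 with pI:pC and 9.62 untreated. SKOV-3 had 6.75 with pI:pC and 6.66 untreated, and DOV-13 6.63 with pI:pC and 6.75 untreated. The 4 arrays of CAOV-3 and OVCAR-3 all lay above the other 4. OVCAR-3 exceeded SKOV-3 by 3.03 ± 0.12 (SE; limma, adjusted p = 8.23e-07), and CAOV-3 exceeded OVCAR-3 by 0.38 ± 0.12 (limma, adjusted p = 0.0311). SKOV-3 and DOV-13 differed by 0.01 (limma, adjusted p = 0.945). MUC16 and WFDC2, whose products are measured together as CA125 and HE4 in serum, were both high in OVCAR-3. CAOV-3, highest for WFDC2, was second for MUC16 and there below the median probe set.

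MSLN had the smallest span of the 4 shed or secreted antigens, 1.16, and lay near the median probe set. It was at 6.94 with pI:pC and 6.93 untreated in CAOV-3, 6.29 with pI:pC and 6.16 untreated in SKOV-3, 5.91 with pI:pC and 5.98 untreated in OVCAR-3, and 5.85 with pI:pC and 5.71 untreated in DOV-13. CAOV-3 was the only line above the median probe set, and it exceeded SKOV-3 by 0.71 ± 0.09 (SE; limma, adjusted p = 0.000458). SKOV-3 exceeded OVCAR-3 by 0.28 ± 0.09 (limma, adjusted p = 0.041), and OVCAR-3 and DOV-13 did not differ beyond their spread (0.17 ± 0.09; limma, adjusted p = 0.186). MUC16, whose product it binds, was highest in OVCAR-3 instead.

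The 2 probe sets of FOLR1 did not give 1 pattern. On 204437_s_at SKOV-3 had 9.57 with pI:pC and 9.36 untreated, CAOV-3 8.50 with pI:pC and 8.79 untreated, OVCAR-3 6.84 with pI:pC and 7.0 untreated, and DOV-13 6.08 with pI:pC and 6.02 untreated. The lines did not overlap, and each step was called by limma: SKOV-3 over CAOV-3 by 0.82 ± 0.13 (SE; adjusted p = 0.00113), CAOV-3 over OVCAR-3 by 1.72 and OVCAR-3 over DOV-13 by 0.87. On 211074_at the 8 arrays lay between 7.82 and 8.53, the lines spanned 0.37 and the F test did not call it (limma, adjusted p = 0.251). Without the untreated SKOV-3 array that probe set was called (limma, adjusted p = 0.00658). Its brightness was above the median in every line. With all arrays no pair of lines was called on 211074_at, so it gives no order of the lines, while DOV-13 was lowest on 204437_s_at.

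PAX8 was highest in OVCAR-3 and lowest in CAOV-3 on all 8 probe sets. The order OVCAR-3, SKOV-3, DOV-13, CAOV-3 was the same on each, and limma called all 48 differences between 2 lines. On the brightest probe set, 121_at, OVCAR-3 had 10.54 with pI:pC and 10.60 untreated, SKOV-3 10.16 with pI:pC and 10.01 untreated, DOV-13 8.63 with pI:pC and 8.73 untreated, and CAOV-3 8.06 with pI:pC and 8.11 untreated. OVCAR-3 exceeded SKOV-3 there by 0.48 ± 0.10 (SE; limma, adjusted p = 0.00429), SKOV-3 exceeded DOV-13 by 1.4 ± 0.10 (adjusted p = 1.49e-05) and DOV-13 exceeded CAOV-3 by 0.60 ± 0.10 (adjusted p = 0.00137). The span was smallest on 221990_at, 1.94, and greatest on 214528_s_at, 4.45, where OVCAR-3 had 8.57 with pI:pC and 8.68 untreated against 4.42 with pI:pC and 3.93 untreated in CAOV-3. CAOV-3 was under the median probe set on 7 of the 8, and 121_at was the exception. CAOV-3 was also the line with the highest MUC1 and WFDC2.

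WT1 was above the median probe set in OVCAR-3 and below it in the other lines. On 206067_s_at OVCAR-3 had 9.68 with pI:pC and 9.70 untreated, and SKOV-3 had 4.87 with pI:pC and 4.79 untreated. DOV-13 had 3.58 with pI:pC and 3.85 untreated, and CAOV-3 3.74 with pI:pC and 3.52 untreated. OVCAR-3 exceeded SKOV-3 by 4.86 ± 0.12 (SE; limma, adjusted p = 1.15e-07), and SKOV-3 exceeded DOV-13 by 1.12 ± 0.12 (adjusted p = 0.000176). DOV-13 and CAOV-3 differed by 0.09 ± 0.12 (limma, adjusted p = 0.614). The other probe set, 216953_s_at, had 6.94 with pI:pC and 6.78 untreated in OVCAR-3, and between 4.89 and 5.08 on the 6 arrays of the other lines. There OVCAR-3 exceeded DOV-13 by 1.78 ± 0.10 (limma, adjusted p = 4.86e-06), and the other lines did not differ beyond their spread. SKOV-3, second to OVCAR-3 in PAX8, was below the median probe set in WT1 on both probe sets.

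ESR1 lay below the median probe set in every line. The 9 probe sets had line means under that median in all 4 lines, with single values between 3.86 and 6.38. For 8 of them the lines spanned between 0.07 and 0.32 and were not called by the F test. The exception was 217190_x_at, with 4.71 with pI:pC and 5.20 untreated in OVCAR-3, 4.22 with pI:pC and 4.42 untreated in CAOV-3, 4.40 with pI:pC and 4.06 untreated in DOV-13, and 4.20 with pI:pC and 3.86 untreated in SKOV-3. It was called by the F test (limma, adjusted p = 0.0166), with OVCAR-3 over CAOV-3 by 0.64 ± 0.20 (SE; adjusted p = 0.0332), and the call was lost without the untreated OVCAR-3 array (adjusted p = 0.134). OVCAR-3 had the highest line mean on 6 of the 9, which for the other 5 of these was within the spread of the arrays. Levels this dim do not show that a line lacks the receptor.

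CD24 was bright in all 4 lines and ordered the same way on all 6 probe sets, SKOV-3, OVCAR-3, CAOV-3, DOV-13. On 209771_x_at SKOV-3 had 13.20 with pI:pC and 13.04 untreated, OVCAR-3 12.58 with pI:pC and 12.71 untreated, CAOV-3 11.01 with pI:pC and 11.98 untreated, and DOV-13 9.63 with pI:pC and 10.46 untreated. On 209772_s_at SKOV-3 had 11.46 with pI:pC and 11.62 untreated, OVCAR-3 10.60 with pI:pC and 10.73 untreated, CAOV-3 9.04 with pI:pC and 9.88 untreated, and DOV-13 7.37 with pI:pC and 8.21 untreated. No array of a line overlapped another line's on these probe sets. SKOV-3 exceeded OVCAR-3 by 0.87 ± 0.20 on 209772_s_at (SE; limma, adjusted p = 0.00729), but on 209771_x_at the difference of 0.47 ± 0.26 was not called (adjusted p = 0.178). The steps from OVCAR-3 to CAOV-3 and from CAOV-3 to DOV-13 were called on all 6, by 1.10 to 1.23 and by 1.24 to 2.12. By the array maker's naming an _x_at probe set can also take up related sequences, which holds for 3 of the 6.

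CD24 was also the gene of the set with the greatest difference between treated and untreated cells, in 2 of the lines. In DOV-13 all 6 probe sets were lower with pI:pC, by -0.91 to -0.70 on the log2 scale, so that the treated level was 53.3% to 61.7% of the untreated one. In CAOV-3 all 6 were lower too, by -1.02 to -0.76, at 49.2% to 58.9% of untreated. In OVCAR-3 the differences were -0.13 to -0.05, and in SKOV-3 -0.16 to 0.17, with 3 probe sets higher and 3 lower. CD24 is 1 gene with 6 probe sets, so the agreement between them is agreement between probes and not between cultures, and 1 array per condition allows no test within a line. In RNA of a whole culture, fewer cells with the transcript and less of it per cell cannot be told apart. Over the 4 lines the mean difference of 209771_x_at was -0.44 ± 0.55 (SD, n = 4 lines; limma with cell line as a block, adjusted p = 0.994), and the 6 means lay between -0.49 and -0.43. For that probe set the mean was -0.265 without CAOV-3 and -0.311 without DOV-13. Whether the lines differ in this treated minus untreated difference was not tested, since each has 1 array pair.

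Set against the whole array, the CD24 differences stood at the low end in DOV-13. A probe set was counted when its arrays differed by 1.5-fold or more and the higher value reached the median probe set of the pair. This is the lower, alternative bar. The main bar was a difference of 1 on the log2 scale, for which counts follow below. In DOV-13 22 probe sets were counted as lower, 0.115% of those tested, and 6 of the 22 were those of CD24. The 22 belong to 16 genes, of which CD24 is 1. Among the 9755 probe sets of DOV-13 that met the level rule, those of CD24 ranked 3, 4, 5, 8, 10 and 12 from the lowest difference. In CAOV-3 197 probe sets of 150 genes were lower by that fold, 1.03% of those tested. All 6 of CD24 were again among them, and ranked between 29 and 86 of 9795. OVCAR-3 had 0 members counted at 1.5-fold, where 0.367% of all probe sets were higher and 0.0997% lower. No member was counted as higher at that fold in the other lines, where the share of all was 0.0525% for SKOV-3, 0.168% for DOV-13 and 1.78% for CAOV-3. At a difference of 1 on the log2 scale, 216379_x_at in CAOV-3 was the 1 member counted, as lower, where 0.152% of all probe sets were. At that size 0 members were counted elsewhere, where the lower share of all was 0.0157% for SKOV-3 and 0.0105% for each of DOV-13 and OVCAR-3, and the higher share 0.00525% for SKOV-3, 0.0157% for DOV-13, 0.766% for CAOV-3 and 0.152% for OVCAR-3. The promoter window listed first for CD24 is shown as the window of the gene with these differences, chr6:106975578-106975877 on the minus strand of GRCh38.p14, with 1 GC box match in capitals.
CD24: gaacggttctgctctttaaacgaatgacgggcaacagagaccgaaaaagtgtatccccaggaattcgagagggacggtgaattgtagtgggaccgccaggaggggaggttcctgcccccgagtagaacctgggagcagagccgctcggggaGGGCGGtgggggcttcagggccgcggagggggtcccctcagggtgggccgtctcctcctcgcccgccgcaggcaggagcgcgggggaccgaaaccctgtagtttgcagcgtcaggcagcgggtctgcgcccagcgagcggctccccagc

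**Figure D2:**
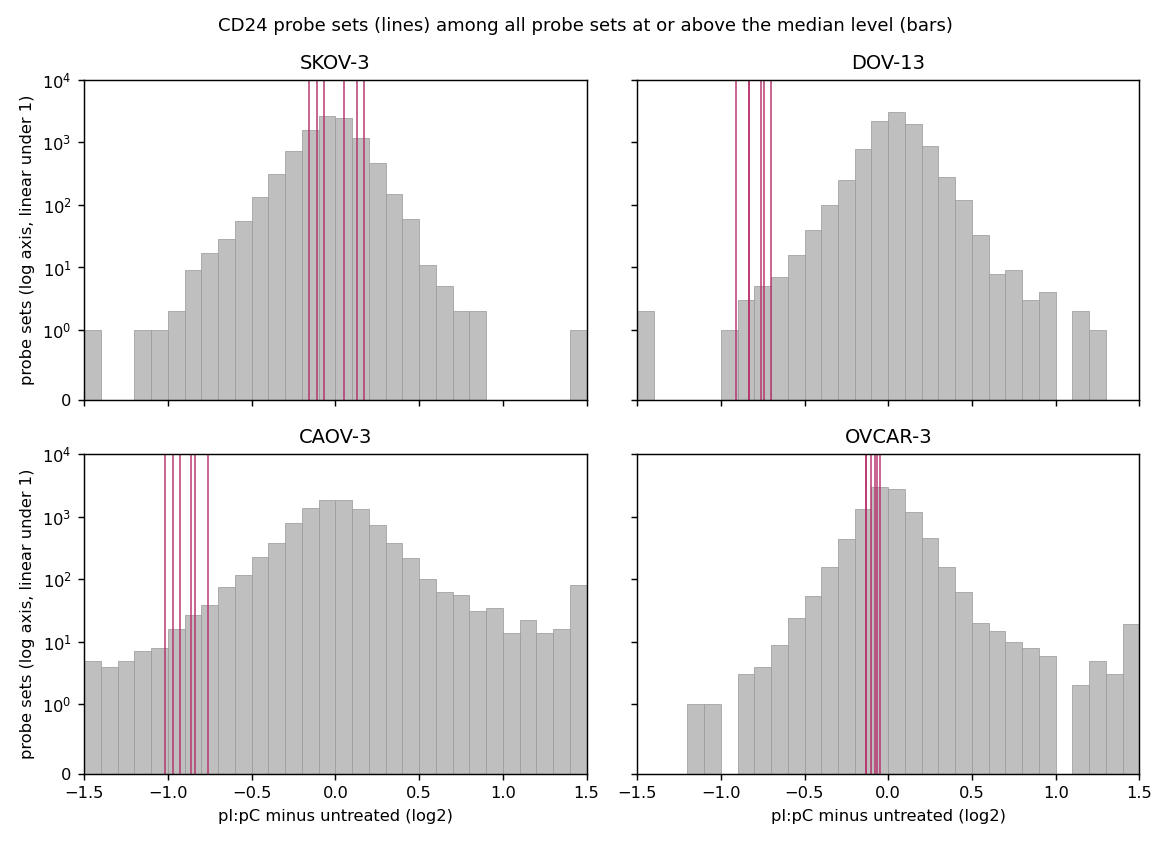
Number of probe sets (bars, log axis that is linear under 1) by pI:pC minus untreated difference on the log2 scale in each line, over probe sets that reach the median level, with values beyond 1.5 in size in the outermost bars; vertical lines are the 6 CD24 probe sets. They lie in the lower tail in DOV-13 and CAOV-3 and near 0 in SKOV-3 and OVCAR-3.

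Interferon-stimulated genes served as a check of the treatment, and 0 of them passed its test either. The median difference of 9 such genes was 3.2 for OVCAR-3, 2.31 for CAOV-3, 0.38 for SKOV-3 and 0.0592 for DOV-13. CD24 was lower with pI:pC in CAOV-3, where these genes were higher, and in DOV-13, where their median was near 0. In OVCAR-3, with the highest median of these genes, the CD24 difference was at most 0.13 in size. Of the markers of other cells described further on, a pair differed in CAOV-3 by about as much as CD24 did: the leukocyte marker CD14 by -0.91 and the mesothelial marker HEG1 by -1.04. In DOV-13 these differences were -0.04 and 0.23. The summed log2 level of the 7 leukocyte markers in CAOV-3 was 34.5 treated and 35.8 untreated, with 1 of the 7 at or above the median probe set, and that of the 6 mesothelial markers was 39.4 treated and 40.0 untreated, with 2 of the 6. Their part in the CD24 values was not tested. Dose, exposure time and the culture behind each array are not given, and their part in the DOV-13 and CAOV-3 values was not tested.

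None of the 33 probe sets passed the test of treatment over the 4 lines. In limma with cell line as a block, 0 of 33 were called at an adjusted p under 0.05, as were 0 of all 19064 (0% in each direction), and the smallest adjusted p was 0.994 for the members and for all. At an unadjusted p under 0.05 there were 7 members, the 6 of CD24 and MUC1 207847_s_at, where 3.72% of all probe sets reached it. Higher in all 4 lines were 2 of the 33, against 6.79% of all probe sets, and lower in all 4 were 3, against 4.73%. The 2 were MUC1 213693_s_at and 207847_s_at, and the 3 were CD24 266_s_at, 208650_s_at and 209772_s_at. The median mean difference of the 33 was 0.0026, beside 0.00639 for all probe sets.

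**Figure D3:**
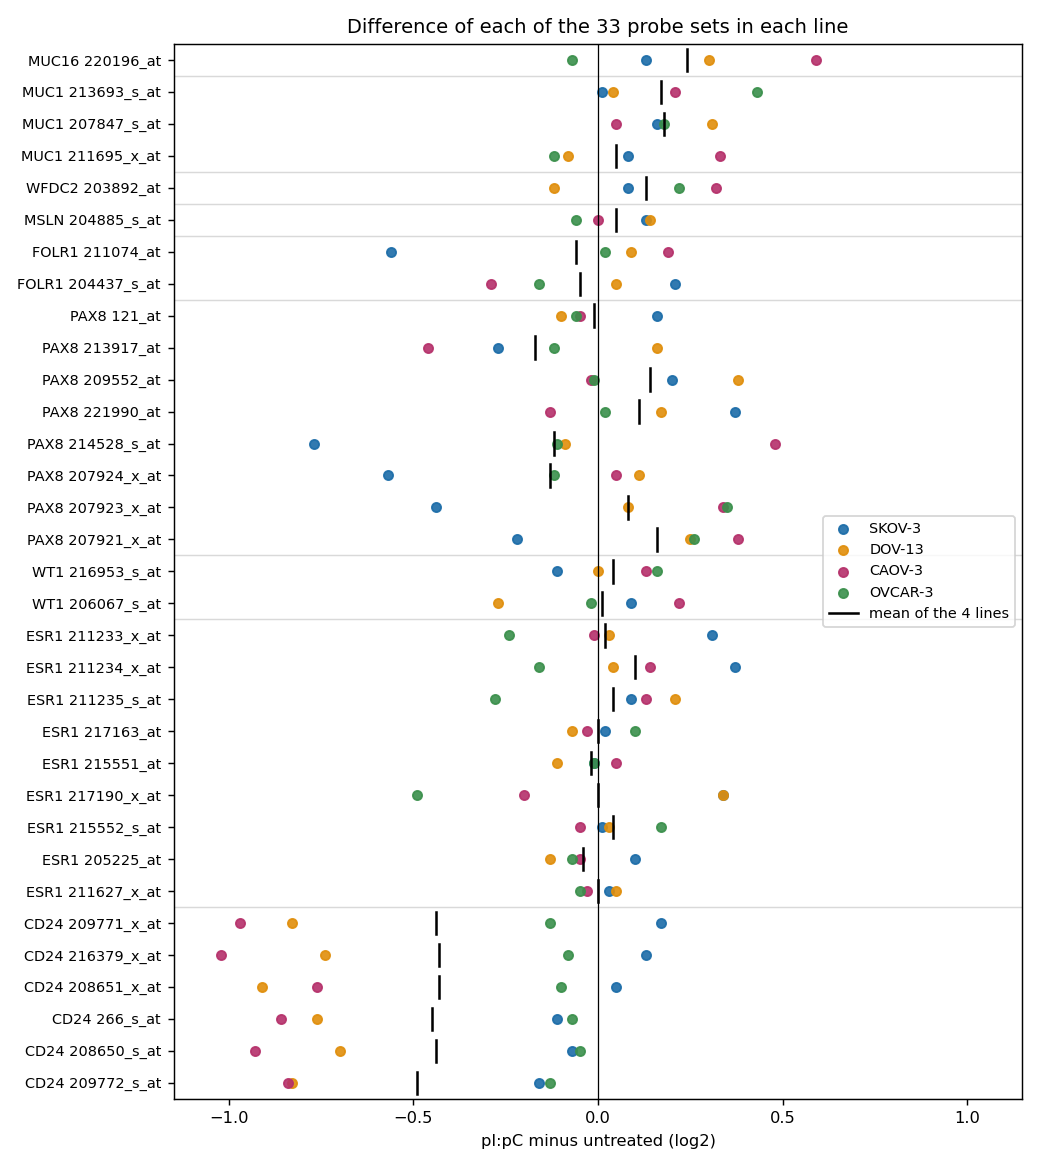
Difference between the pI:pC and the untreated array (log2) for each of the 33 probe sets, 1 point per line, with a black bar at the mean of the 4 lines. The CD24 points of DOV-13 and CAOV-3 lie between -1.02 and -0.70, and most other points lie within 0.5 of 0.

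None of the antigens passed the test of treatment. MUC16 had a mean difference of 0.24 ± 0.28 (SD, n = 4 lines; limma, adjusted p = 0.994), which was 0.59 for CAOV-3, 0.30 for DOV-13, 0.13 for SKOV-3 and -0.07 for OVCAR-3. OVCAR-3, where MUC16 was bright, was the 1 line with a lower treated value, and the mean was 0.119 without CAOV-3. MUC1 213693_s_at had 0.17 ± 0.19, which was 0.43 for OVCAR-3, 0.21 for CAOV-3, 0.04 for DOV-13 and 0.01 for SKOV-3. Its probe set 207847_s_at had 0.18 ± 0.11, and 211695_x_at had 0.05 ± 0.20 with a negative difference in DOV-13 and OVCAR-3. WFDC2 had 0.13 ± 0.19, with 0.32 in CAOV-3 and 0.22 in OVCAR-3, its bright lines, and 0.08 in SKOV-3 and -0.12 in DOV-13. The WFDC2 mean was 0.206 without DOV-13 and 0.0621 without CAOV-3, and that of MUC1 213693_s_at was 0.0846 without OVCAR-3. MSLN had 0.05 ± 0.10, with means between 0.0261 and 0.0935 when 1 line was left out. The FOLR1 probe sets had -0.06 ± 0.34 and -0.05 ± 0.22, and in SKOV-3 they went opposite ways, -0.56 on 211074_at and 0.21 on 204437_s_at.

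The lineage factors showed no common direction with pI:pC. PAX8 had mean differences between -0.17 and 0.16, 4 probe sets positive and 4 negative. In SKOV-3 5 of its 8 probe sets were lower and 3 higher, from -0.77 on 214528_s_at to 0.37 on 221990_at. That -0.77 was the only member difference in SKOV-3 past 1.5-fold, where 0.33% of all probe sets were counted as lower. On the same probe set CAOV-3 had 0.48. PAX8 probe sets that gave 1 order of the lines did not give 1 direction of treatment within a line, so no direction is given for the gene. WT1 had 0.01 ± 0.21 on 206067_s_at and 0.04 ± 0.12 on 216953_s_at, and in OVCAR-3, its bright line, -0.02 and 0.16. The 9 ESR1 means lay between -0.04 and 0.10, at levels under the median.

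The windows of 7 of the 9 genes were found in the RefSeq promoter table, with 19 windows in all, and those of FOLR1 and MSLN were not matched. They were searched on both strands for the interferon-stimulated response element, the NF-kB motif, the gamma-activated sequence (TTCNNNGAA), the oestrogen response element, the GC box (GGGCGG) and the TATA box (TATAAA). No match to different motifs overlapped. The first listed window of these 7 genes held 0 matches to the first 4 motifs, which occur in 3.57%, 1.91%, 7.66% and 0.057% of all 35116 windows of that length. Of 8 interferon-stimulated genes with a window, 7 held the interferon-stimulated response element letters. The GC box was in the first window of 5 members, MUC16, MUC1, WFDC2, WT1 and CD24, and in 45% of all windows, and the TATA box only in that of MUC1, and in 11.5% of all. In the other windows the gamma-activated sequence letters occurred in 2 of the 6 of ESR1. A match, or none, describes letters in these windows and says nothing of binding.

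Other genes of the same lineages gave the setting of these lines. Of 12 measured Mullerian, coelomic and gonadal lineage factors, 10 were called between lines by the F test (67.5% of all probe sets were), with 4 of the 10 highest in OVCAR-3 and 2 in each other line. EMX2, a factor of the Mullerian duct, had a line mean of 9.89 for OVCAR-3, 3.74 for SKOV-3, 3.70 for CAOV-3 and 3.69 for DOV-13. SOX17, which is found with PAX8 in Mullerian epithelium, had 9.61 for OVCAR-3, 7.45 for SKOV-3, 5.94 for DOV-13 and 4.41 for CAOV-3, the order seen for PAX8. MECOM had 10.16 for SKOV-3, 8.32 for OVCAR-3, 7.41 for DOV-13 and 4.67 for CAOV-3, and LHX1 was likewise lowest in CAOV-3 (4.88). LHX2, by contrast, was highest in CAOV-3, at 7.82. None of the 12 was called for treatment (smallest adjusted p = 0.994).

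Of 19 other surface and epithelial genes of ovarian carcinoma, 18 were called between lines by the F test, where 67.5% of all probe sets were. CAOV-3 was highest for 7 of the 18, OVCAR-3 for 7, DOV-13 for 3 and SKOV-3 for 1. EPCAM, an epithelial adhesion molecule, had a line mean of 12.56 for CAOV-3, 12.00 for OVCAR-3, 8.47 for SKOV-3 and 5.68 for DOV-13. CDH1 (E-cadherin) had 9.60 for CAOV-3, 9.47 for OVCAR-3, 3.81 for SKOV-3 and 3.77 for DOV-13. SPINT1, a protease inhibitor, and its target protease gene ST14 were high in the same pair of lines, as WFDC2 was. SLC34A2, a phosphate transporter gene, was at 10.76 in OVCAR-3 and between 4.69 and 4.78 in the other lines, and CDH6 was at 11.51 in OVCAR-3. Keratins were bright in all lines, KRT18 between 11.57 and 12.55 and KRT8 between 10.71 and 11.53, while KRT7 was 7.52 in SKOV-3 and at least 10.62 elsewhere. SPINT1 was at 5.53 in SKOV-3 and 5.22 in DOV-13, so these lines were below the median in CDH1 and SPINT1 and above it in the keratins. In DOV-13, MUC16, MUC1, MSLN, WT1, ESR1, EPCAM and CDH1 were all below the median probe set on every probe set used for them here.

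**Figure D4:**
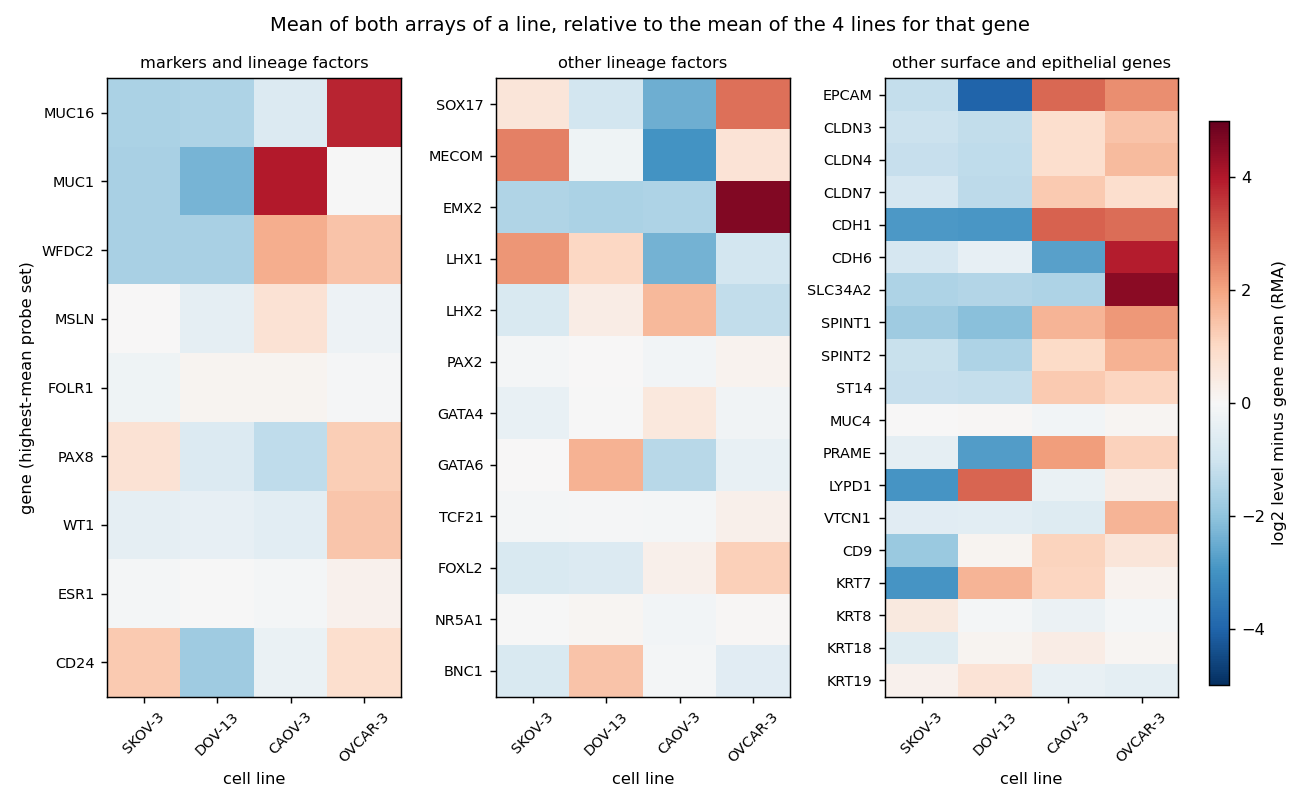
Line mean on the log2 scale minus the mean of the 4 lines, for the highest-mean probe set of each gene, in the 9 marker genes, 12 other lineage factors and 19 other surface and epithelial genes (red higher, blue lower). OVCAR-3 stands out for MUC16, EMX2, CDH6 and SLC34A2, CAOV-3 for MUC1, and CAOV-3 and OVCAR-3 share WFDC2, EPCAM, CDH1 and SPINT1. For WT1 and FOLR1 the probe set drawn is the one with the smaller span between lines.

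Around ESR1, the progesterone receptor gene PGR, a classical oestrogen target, lay between 3.50 and 3.64 in line means, and GREB1, another target, between 4.30 and 4.52. Of 17 measured steroid receptor and oestrogen target genes, 11 were called between lines by the F test, a share near the 67.5% of all probe sets. At or above the median probe set were 7 of the 17 in SKOV-3 and 6 of the 17 in each other line. Bright in every line were CCND1 (line means between 8.96 and 10.47), NRIP1 (8.65 to 10.72) and XBP1 (7.81 to 10.21). TFF1 was at 5.56 in CAOV-3 and between 4.81 and 4.88 elsewhere, under the median throughout. PDZK1 was at 9.05 in SKOV-3 and between 3.77 and 4.30 elsewhere, and the glucocorticoid receptor gene NR3C1 was at 11.04 in CAOV-3 and 7.80 in OVCAR-3. Around FOLR1, 9 of 12 measured genes of folate uptake and folate enzymes were called, beside 67.5% of all probe sets. The reduced folate carrier gene SLC19A1 had 8.04 for DOV-13, 8.03 for SKOV-3, 7.36 for OVCAR-3 and 7.25 for CAOV-3. FOLR3 was highest in SKOV-3 (6.21 against 4.78 to 4.96 elsewhere), and FOLR2 lay between 5.40 and 5.50. None of these genes was called for treatment (limma, smallest adjusted p = 0.994 in each list).

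Markers of leukocytes and endothelium were mostly below the median probe set, and those of fibroblasts and mesothelium were not uniformly so. Of 7 leukocyte markers 0 or 1 reached the median probe set in a line, and their summed log2 level was 33.1 to 34.5 in treated and 33.4 to 35.8 in untreated arrays. The 1 was CD14 in CAOV-3, with 6.15 treated and 7.06 untreated. Of 6 endothelial markers 0 or 1 reached it (summed 30.9 to 33.6 treated, 31.3 to 32.3 untreated), and of 8 fibroblast markers 1 or 2 (41.6 to 45.5 treated, 41.6 to 44.7 untreated). COL1A1 was above the median in all 4 lines, with line means between 7.17 and 7.52, and COL1A2 was at 8.04 in SKOV-3 and at most 6.08 elsewhere. PTPRC (CD45) lay between 4.16 and 4.26 and PECAM1 between 5.40 and 5.46 in line means, both under the median. Of the 6 mesothelial markers, a list of interest because mesothelium also carries WT1 and MSLN, 4 were highest in OVCAR-3, with UPK1B at 10.23 there and at most 6.0 elsewhere. TM4SF1 had line means of 12.22 for OVCAR-3, 11.68 for DOV-13, 11.57 for SKOV-3 and 6.77 for CAOV-3, and HEG1 of 11.29 for OVCAR-3, 10.63 for CAOV-3, 9.27 for DOV-13 and 6.47 for SKOV-3. In OVCAR-3 the other 3 of the 6 were under the median, the calretinin gene CALB2 at 5.63, PDPN at 4.19 and UPK3B at 6.22. The summed level of all 6 was 49.9 treated and 49.7 untreated in OVCAR-3, and 38.5 to 42.6 on the other arrays.

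The genes whose pattern over the 8 arrays was closest to a marker were taken as those with the smallest root mean square difference of centred log2 values. This was done for the 5 members whose highest-mean probe set spans at least 2. WT1, FOLR1, MSLN and ESR1 were left out by that rule. For WT1 and FOLR1 the probe set used spans 1.91 and 0.37, while the other spans 6.07 and 3.41. For MUC16 they were UPK1B on both probe sets (0.303 and 0.355) and BMP7 (0.382), for MUC1 MPZL2 (0.283) and TNFSF10 (0.370 and 0.472), and for WFDC2 PNMA8A (0.162), ST14 (0.196) and GBP1 (0.269). PAX8 121_at was closest to BRWD1 (0.143), ADAM10 (0.188) and B4GALT5 (0.231), and CD24 209771_x_at to TPD52L1 (0.318), ATP2B4 (0.370) and FGFBP1 (0.407). The 8 arrays are 4 pairs, so such a likeness rests on 4 lines and describes them only.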

How the data were processed

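RNA of 4 established ovarian cancer cell lines was hybridised to 8 Affymetrix arrays, 1 treated and 1 untreated per line. The deposited values are log2 levels per probe set, made by the authors with RMA per the submitters' processing notes; the version and software, and whether the 8 arrays were run as 1 batch, are not stated in the labels. RMA compresses differences of dim probe sets. Names came from GEO's platform annotation: 19064 probe sets have a single symbol, 1043 have more, and 2170 have none here (62 are array controls) of 22277.

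The 19064 were fitted in limma 3.58.1 under R 4.3.3 (moderated, two-sided); p-values were Benjamini-Hochberg adjusted over this whole set, threshold 0.05. The treatment fit had the cell line as a block. Pearson's r lay between 0.991 and 0.997 within a line and between 0.888 and 0.943 across lines. The pairing comes from the cell line itself, and deviations from the group means correlated within each line at 0.937 to 0.966. The line fit had treatment as a term, an F test and 6 contrasts adjusted together. Each fit had 3 residual and 4.57 prior degrees of freedom. The fits were tested on simulated data. All member probe sets are named, whatever their values. For the other lists the highest-mean probe set of a gene was used. The text names some of the genes that passed a test, not all, or, where none passed, those largest in size. Some genes were added as examples, and which genes to name was settled after their values were seen. The members and lists were chosen with earlier results of these data known. Alternatives were the fit without the block or the treatment term, 1 probe set per gene, a level filter, other scalings, eBayes with trend and robust, each line or array left out, and, chosen after seeing the data, no _x_at probe sets. The p-values measure the spread between lines or between the arrays of a line, and no error between cultures is known.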

Additional observations from a re-analysis of the deposited data

Results flagged for a closer look

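Among the 33 probe sets, 66 groups of 4 levels and 33 groups of 4 differences were examined for a value far from the other 3. For 3 of the level groups and 0 of the difference groups the gap was above the 95% critical value of Dixon's test, which chance exceeds in about 1 of 20 groups. WT1 216953_s_at in OVCAR-3 stood apart among the treated arrays (gap 0.944 of the range) and among the untreated arrays (0.900), and MUC16 220196_at in OVCAR-3 among the untreated arrays (0.865).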

How the results depend on the processing

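Under the settings that keep all arrays, including the one without _x_at probe sets chosen after seeing the data, no member probe set still tested changed its call in the F test or the treatment test. With the replicate block left out, 0 members were called for treatment and the smallest adjusted p of limma was 1; the block, which pairs the arrays of a line, changed no call. Keeping the highest-mean probe set per gene, which tests fewer probe sets by construction, gave 8340 F test calls over all genes, 7 of 9 members, 35 member differences and 34999 differences in all. At 1.5-fold in place of 1 on the log2 scale, 1 member was counted as lower in SKOV-3, 6 in DOV-13 and 6 in CAOV-3, by the lower bar. Mean differences near 0 changed sign: after a second quantile normalization WT1 206067_s_at was -0.00338, ESR1 211627_x_at -0.00323 and ESR1 217163_at -0.00343, and with arrays centred on their medians -0.00656, -0.0114 and -0.00928. Leaving out 1 line turned the sign in these ranges, whose cause was not tested: WT1 206067_s_at -0.0657 to 0.0964, PAX8 207924_x_at -0.21 to 0.0168, 214528_s_at -0.321 to 0.095, 121_at -0.0699 to 0.0163 and 207923_x_at -0.00775 to 0.253, FOLR1 211074_at -0.15 to 0.101 and 204437_s_at -0.131 to 0.0339, MUC1 211695_x_at -0.0378 to 0.112, and ESR1 211233_x_at -0.0741 to 0.107, 211627_x_at -0.0169 to 0.0187, 211235_s_at -0.0207 to 0.142, 215551_at -0.0443 to 0.0102, 215552_s_at -0.00236 to 0.0703, 217163_at -0.0283 to 0.0272 and 217190_x_at -0.116 to 0.161. The smallest adjusted p of a member was then 0.722 to 1, with 0 calls. Leaving out 1 array, so that the lone array of that line is assumed to vary like the others, gave 23 to 25 F test calls among members, beside 11648 to 12678 over all probe sets, and 118 to 131 member differences, beside 45031 to 50770. FOLR1 211074_at (adjusted p = 0.00658 without the untreated SKOV-3 array) and ESR1 211233_x_at (0.044 without the treated SKOV-3 array) gained a call, and ESR1 217190_x_at lost it (0.134 without the untreated OVCAR-3 array). With 1 array per line and condition, signal over background limits what the ESR1 values show.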
